A study of Homo sapiens with 6 samples.

Results

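The SPRR genes encode the small proline-rich proteins, and 9 of them (SPRR1A, SPRR1B, SPRR2A, SPRR2B, SPRR2D, SPRR2E, SPRR2F, SPRR2G and SPRR3) were followed here out of 19740 genes with a named probe on the array. The family was chosen by its name, after signals from this same comparison had shown SPRR2A among the strongest rises, and its members were then found as every non-control probe whose RefSeq accession belongs to one of the 9 genes. This gave 12 probes of 34127. SPRR1A, SPRR2A and SPRR2D each had a pair of probes, told apart below as brighter and dimmer by their mean over the 6 arrays, and the other 6 genes had 1 probe. Because the values of shXBP-1s against shCtrl chose the family, those values are given below as a description, with no p-value for any member.

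The cells were CAL-27, a squamous carcinoma line from a human tongue tumour. The shXBP-1s cells carried a stable shRNA against XBP-1s, the spliced and active form of the unfolded protein response factor XBP1, and the shCtrl cells carried a negative control shRNA. Total RNA of 3 samples per group was hybridised in 1 colour (Cy3) to 6 Agilent whole human genome arrays, and the comparison asks which transcripts change when XBP-1s is depleted. Neither the labels nor the methods say whether the 3 samples of a group were separate transductions or cultures, or how many shRNA sequences were used, so spreads and p-values describe these arrays only, and the number of arrays limits the precision. In such bulk RNA, a change in the number of cells that express a gene and a change in its RNA per cell cannot be told apart.

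SPRR proteins are precursors of the cornified envelope, the insoluble protein shell that squamous epithelial cells build beneath their plasma membrane as they differentiate. Transglutaminases cross-link them through glutamine and lysine residues to involucrin, loricrin and each other. Their genes lie side by side in the epidermal differentiation complex, and are known to be induced in differentiating, wounded or inflamed squamous epithelium.

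Promoters are shown for the gene pair with the largest differences (SPRR1B and SPRR2A), for the member whose promoter was most similar to that of SPRR2A (SPRR2F), and for the member with no rise (SPRR2G). Each is the 250 bases before the RefSeq transcription start, read 5′ to 3′ on the strand of the gene, in build GRCh38.p14. SPRR1B lies on the plus strand at chr1:153030953-153031202. The other 3 lie on the minus strand, SPRR2A at chr1:153057513-153057762, SPRR2F at chr1:153113517-153113766 and SPRR2G at chr1:153150891-153151140. Capitals mark matches on either strand to the motifs spelled out next. The AP-1 motif was spelled TGANTCA and the core of ETS factors GGAAG. The octamer of POU factors was spelled ATGCNAAT, where a match on the other strand reads in reverse complement. The core of an unfolded protein response element was spelled ACGTG, and the TATA box TATAAA.
SPRR1B: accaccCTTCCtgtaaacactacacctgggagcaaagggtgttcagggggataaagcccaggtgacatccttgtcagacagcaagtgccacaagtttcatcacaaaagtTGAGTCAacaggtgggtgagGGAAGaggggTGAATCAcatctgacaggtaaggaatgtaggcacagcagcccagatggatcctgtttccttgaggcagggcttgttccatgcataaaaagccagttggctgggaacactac
SPRR2A: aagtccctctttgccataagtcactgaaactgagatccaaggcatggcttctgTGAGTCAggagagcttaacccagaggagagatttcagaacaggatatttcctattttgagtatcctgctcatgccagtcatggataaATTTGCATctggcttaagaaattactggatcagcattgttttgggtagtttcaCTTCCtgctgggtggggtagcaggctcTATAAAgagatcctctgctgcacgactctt
SPRR2F: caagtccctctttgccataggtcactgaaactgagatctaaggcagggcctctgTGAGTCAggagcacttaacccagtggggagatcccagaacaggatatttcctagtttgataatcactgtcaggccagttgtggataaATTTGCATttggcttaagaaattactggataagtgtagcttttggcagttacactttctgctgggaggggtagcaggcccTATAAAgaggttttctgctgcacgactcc
SPRR2G: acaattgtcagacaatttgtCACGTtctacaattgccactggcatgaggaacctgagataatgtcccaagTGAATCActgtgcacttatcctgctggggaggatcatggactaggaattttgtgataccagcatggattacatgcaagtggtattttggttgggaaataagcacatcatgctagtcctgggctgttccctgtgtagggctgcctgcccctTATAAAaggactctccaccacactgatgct

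The table of RefSeq promoters used here held this stretch for 7 of the 9 members, all but SPRR2D and SPRR2E. The AP-1 letters stood in 6 of these 7 promoters, all but that of SPRR2B, against 6.57% of the 35116 promoters in the table. SPRR1B held them at 2 places, with first bases 141 and 111 bases before the start. The octamer letters stood in 3 of 7 (SPRR2A, SPRR2B and SPRR2F) against 2.69% of all promoters, and the TATA letters in 6 of 7, all but SPRR1B, against 10.7%. The ETS letters, common everywhere at 65.1%, stood in 4 of 7 (SPRR1B, SPRR2A, SPRR2B and SPRR3). ACGTG stood only in SPRR2G among the 7, 230 to 226 bases before the start, and in 18.5% of all promoters. Neither TTCNNNGAA (STAT, 6.57% of all) nor the IRF motif (3.02% of all) was found in any of the 7. The promoters are copies of one another to differing degrees, so these counts are not independent. In global alignments with gaps allowed, identical bases made up 86.4% of the 250 for SPRR2A and SPRR2F. They made up 72.4% for SPRR1A and SPRR1B, 72.4% for SPRR2B and SPRR2F and 70.4% for SPRR2A and SPRR2B. The other pairs had 57.6% to 65.6%. These matches describe the letters and are not evidence of binding.

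Levels are given in 2 ways. The signal is the intensity of a spot after the background subtraction of the scanner software, in arbitrary units. The log2 level is the log2 of that signal minus the log2 of its array's 75th percentile, which was 687, 761 and 755 in shCtrl replicates 1, 2 and 3 and 983, 895 and 792 in shXBP-1s replicates 1, 2 and 3. A probe was called when its Benjamini-Hochberg adjusted p from limma over all 27624 tested probes was below 0.05 and its difference at least 2-fold. On every array 82.1% to 84.8% of spots were well above background, and all 12 SPRR probes were so on all 6 arrays. XBP1 itself (NM_005080), the targeted gene, had signals of 2536, 2743 and 2766 in shCtrl and 695, 617 and 551 in shXBP-1s. The log2 fold change was -2.39 (standard error 0.04, limma adjusted p = 2.81e-07, n = 3 per group), as the labels say. Whether its probe takes up the spliced form, the unspliced form or both is not known here.

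Of the 12 SPRR probes, 11 were higher in shXBP-1s (6 with normexp, another background correction taken up below) and 10 of these without overlap between the groups, where 23.9% of all tested probes were higher without overlap. The call was met by 4 probes (of SPRR1A, SPRR1B, SPRR2A and SPRR2D), where 2.29% of all tested probes were called higher. With no minimum fold, 9 of the 12 were higher at an adjusted p below 0.05, where 18.4% of all tested probes were higher at that limit. Since the family was selected on this contrast, nothing is read from these counts. The log2 fold changes of the 12 probes ran from -0.08 to 4.02 with a median of 0.69, beside a median of -0.02 over all tested probes. The differences were uneven: 3 probes differed by 8-fold or more and 8 by less than 2-fold. With normexp, which left the median of all tested probes at -0.41, 6 of these 12 differences were negative (SPRR2B, SPRR2G, SPRR3, the dimmer SPRR2A probe and both SPRR2D probes). Relative to that median, SPRR2B, SPRR2G, SPRR3 and the dimmer SPRR2A probe were lower, by -0.44, -0.36, -0.19 and -0.15 on the log2 scale. All of them had mean log2 levels below -4, and the normexp median of such dim probes was -0.837. Their own normexp values were -0.855, -0.773, -0.602 and -0.562, so none was clearly below other dim probes.

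**Figure D1:**
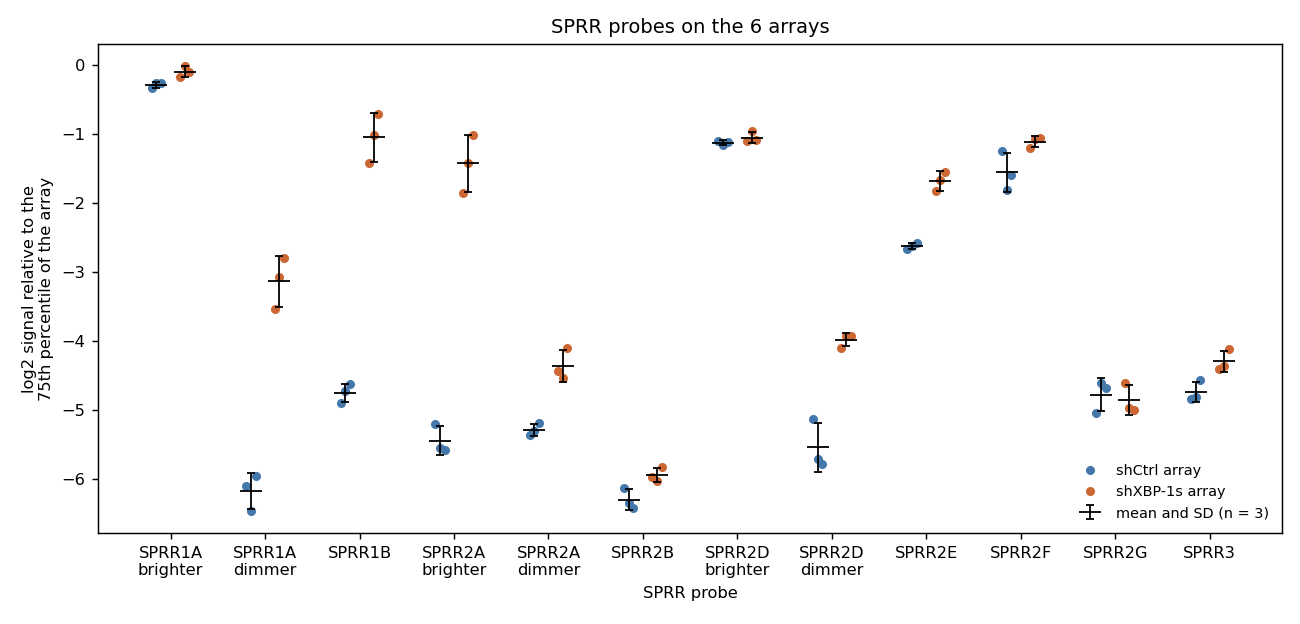
Log2 signal with the array's 75th percentile subtracted (vertical axis) for the 12 SPRR probes (horizontal axis), with a point per array, blue for shCtrl and orange for shXBP-1s, and bars for the mean and SD of 3 arrays. SPRR1B, the brighter SPRR2A probe and the dimmer SPRR1A probe show the widest separations, at 3.70, 4.02 and 3.04, whereas the groups overlap for SPRR2G and the brighter SPRR2D probe.

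SPRR1B (NM_003125), a cornified envelope precursor of the SPRR1 pair, was among the most increased transcripts of the array. Its signal was 23.0, 28.7 and 30.5 in shCtrl replicates 1 to 3 and 368, 439 and 484 in shXBP-1s replicates 1 to 3. The lowest shXBP-1s array lay 3.21 log2 units above the highest shCtrl array. The log2 level went from -4.75 ± 0.14 (SD, n = 3) to -1.05 ± 0.35 (SD, n = 3), a log2 fold change of 3.70 (standard error 0.17), or 13.0-fold, which ranked 13 among the 27624 tested probes. The call was met under all 18 alternative ways of processing, with log2 fold changes from 1.65 to 3.88. Its promoter, printed above, is the one with AP-1 letters at 2 places.

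SPRR1A (NM_005987), its neighbour in sequence, was measured by 2 probes that gave different fold changes. The dimmer probe (A_23_P74012) had signals of 10.0, 8.62 and 12.1 in shCtrl and 84.9, 106 and 113 in shXBP-1s. All 3 shXBP-1s arrays were far above the shCtrl arrays, and the log2 fold change was 3.04 (standard error 0.21), or 8.22-fold, and was called. In shCtrl this probe was close to the background: its uncorrected spot medians were 31.5, 26.5 and 32.0 there, beside local backgrounds of 15, 14 and 12, and 102, 124 and 134 in shXBP-1s. The size of its difference moved with the background correction: it was 0.27 with normexp and 0.99 with normexp followed by quantile normalization, and in neither was the call met.

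The brighter SPRR1A probe (A_23_P348208) had log2 levels of -0.34, -0.27 and -0.27 in shCtrl and -0.18, -0.02 and -0.11 in shXBP-1s. The groups did not overlap, but the gap between them was only 0.09, and the log2 fold change was 0.19 (standard error 0.06), or 1.14-fold. The dimmer probe exceeded it by 2.85 in log2 fold change. On the linear scale the gains were alike, at 11.7% of the array's 75th percentile for the brighter probe and 10.2% for the dimmer. No probe sequences were used here, so it is not known which SPRR1A transcripts, or which related transcripts, each probe takes up.

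SPRR2A (NM_005988) has the largest difference in the family, by its brighter probe (A_33_P3260430). The signals were 18.6, 16.3 and 15.7 in shCtrl and 272, 335 and 391 in shXBP-1s. Every shXBP-1s array was above every shCtrl array, by at least 3.35 log2 units. The log2 level went from -5.45 ± 0.21 (SD, n = 3) to -1.43 ± 0.42 (SD, n = 3), a log2 fold change of 4.02 (standard error 0.20), or 16.2-fold, ranked 11 among the tested probes and called under all 18 alternatives (1.55 to 4.23).

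The dimmer SPRR2A probe (A_33_P3260426) had signals of 16.7, 19.2 and 20.6 in shCtrl and 45.3, 38.5 and 46.3 in shXBP-1s. The groups did not overlap, but its log2 fold change of 0.93 (standard error 0.14), or 1.91-fold, fell just outside the 2-fold threshold, and it was -0.56 with normexp. Set against the brighter probe, its log2 fold change differed by -3.09. The linear gains differed as well, at 35.9% of the array's 75th percentile for the brighter probe and 2.36% for the dimmer. The SPRR2 proteins are close relatives, and their transcripts are alike enough that cross-hybridisation between members cannot be judged without the probe sequences.

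SPRR2D (NM_006945) also had 2 probes with different fold changes. Their linear gains were 2.42% of the array's 75th percentile for the brighter and 4.14% for the dimmer. The dimmer SPRR2D probe (A_23_P11644) had signals of 19.6, 14.6 and 13.7 in shCtrl and 57.5, 59.0 and 51.8 in shXBP-1s. These did not overlap, and the log2 fold change of 1.56 (standard error 0.18), or 2.95-fold, was the called value closest to the threshold. It was 0.47 with normexp and quantile normalization and -0.27 with normexp alone, and was called under neither. The brighter SPRR2D probe (A_33_P3322388) had log2 levels of -1.10, -1.16 and -1.12 in shCtrl and -1.10, -0.97 and -1.10 in shXBP-1s. These overlapped, and the log2 fold change was 0.07 (standard error 0.06), with a value of -0.02 under normexp.

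SPRR2E (NM_001024209) was the member closest below the threshold. Its signals of 108, 123 and 126 in shCtrl and 276, 282 and 270 in shXBP-1s did not overlap, and both groups were tight. The log2 level went from -2.63 ± 0.04 (SD, n = 3) to -1.68 ± 0.14 (SD, n = 3), a log2 fold change of 0.94 (standard error 0.08), or 1.92-fold. Leaving out shXBP-1s replicate 1 brought it to 1.02, past the call.

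SPRR2F (NM_001014450) had log2 levels of -1.25, -1.82 and -1.60 in shCtrl and -1.21, -1.08 and -1.06 in shXBP-1s. The shXBP-1s arrays lay above the shCtrl arrays with a gap of 0.04, and the log2 fold change was 0.44 (standard error 0.13), or 1.36-fold. Its 250-base promoter, at 86.4% identity to that of SPRR2A, holds the same AP-1, octamer and TATA letters, whereas the ETS letters of SPRR2A are absent. SPRR2B (NM_001017418) was near the background throughout, with signals of 9.80, 9.36 and 8.83 in shCtrl and 15.7, 13.7 and 13.9 in shXBP-1s. Its log2 fold change was 0.36 (standard error 0.16), and it was -0.86 with normexp.

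SPRR2G (NM_001014291), at the end of the gene cluster, was the member with no rise. Its log2 levels were -5.04, -4.60 and -4.68 in shCtrl and -4.60, -4.98 and -5.00 in shXBP-1s. The groups overlapped, and the log2 fold change was -0.08 (standard error 0.16), with a positive sign under normexp with quantile normalization (0.02), with the scan as a block (0.18) and without shCtrl replicate 2 (0.00). Its promoter shared the AP-1 and TATA letters with other members, and was the one of the 7 with ACGTG.

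SPRR3 (NM_005416), the family member typical of oral and oesophageal lining rather than skin, had signals of 23.9, 27.2 and 31.8 in shCtrl and 46.4, 43.5 and 45.6 in shXBP-1s. The groups did not overlap, with a gap of 0.16 on the log2 scale. The log2 level went from -4.74 ± 0.15 (SD, n = 3) to -4.30 ± 0.16 (SD, n = 3), a log2 fold change of 0.44 (standard error 0.12), or 1.36-fold, and was -0.60 with normexp.

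The background correction moved the log2 fold changes of many members. With normexp the dim probes as a whole were lower in shXBP-1s: among the 8615 tested probes with a mean log2 level below -4, the median log2 fold change was -0.84 with normexp and -0.01 with the signals of the scanner software. Followed by quantile normalization, that median was -0.01 and 2 SPRR probes were called, those of SPRR1B and the brighter SPRR2A probe, with log2 fold changes of 2.09 and 2.05. Whether the correction of the scanner software or normexp is nearer the true size was not tested.

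**Figure D2:**
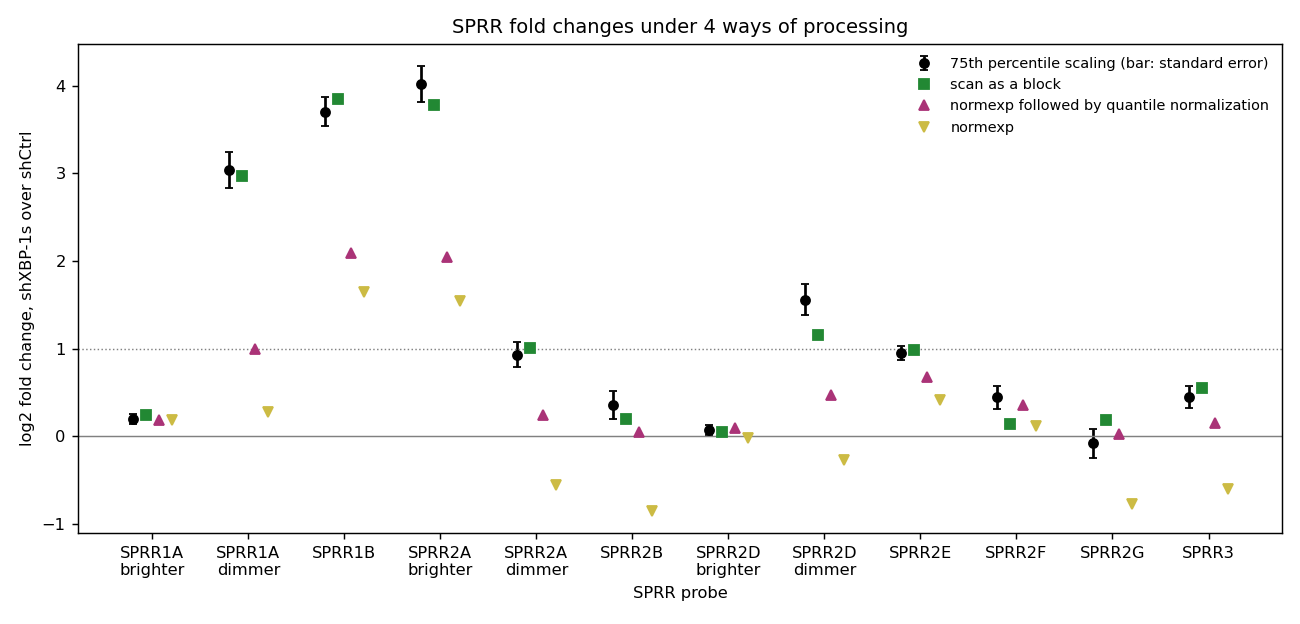
Log2 fold change of shXBP-1s over shCtrl (vertical axis) for each SPRR probe (horizontal axis) under 75th percentile scaling, with its standard error as a bar, with the scan as a block, with normexp and quantile normalization, and with normexp alone. The dotted line marks 2-fold. SPRR1B and the brighter SPRR2A probe lie above it under all 4, whereas the dimmer SPRR1A and SPRR2D probes fall under it with either normexp setting and 6 probes lie below 0 with normexp alone.

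The file headers show that the 6 arrays came from 2 scans. Scan 1 held shCtrl replicates 2 and 3, and scan 2 held shCtrl replicate 1 with all 3 shXBP-1s arrays. Within scan 2, against that lone control, the difference was 3.85 for SPRR1B, 3.78 for the brighter SPRR2A probe, 2.97 for the dimmer SPRR1A probe and 1.15 for the dimmer SPRR2D probe. The same comparison gave 0.14 for SPRR2F and 0.19 for SPRR2B, beside 0.44 and 0.36 over all arrays. Scan 1 held no shXBP-1s array and gave no value. The fit with the scan as a block therefore rested on shCtrl replicate 1 alone as the control, and its log2 fold changes were these same values.

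Among the 3 shXBP-1s arrays, the probes with the 3 largest differences were also the most variable of the family. Relative to the group mean, replicates 1, 2 and 3 stood at -0.37, 0.03 and 0.34 for SPRR1B. They stood at -0.42, 0.01 and 0.41 for the brighter SPRR2A probe and at -0.40, 0.06 and 0.33 for the dimmer SPRR1A probe. All 3 probes were thus lowest in replicate 1 and highest in replicate 3, with ranges of 0.71, 0.83 and 0.73. Over the family, 6 of 12 probes (50%) had that arrangement, as did 27% of all tested probes. With a range of at least 0.5, a limit chosen after the values were seen, it was 3 of 12 (25.0%) against 1.03% of all. The 75th percentiles of the arrays, which the log2 level subtracts, ran the other way, highest in replicate 1 and lowest in replicate 3. Before that scaling, the signals of the 3 probes were also lowest in replicate 1 and highest in replicate 3. They were 368, 439 and 484 for SPRR1B, 272, 335 and 391 for the brighter SPRR2A probe and 84.9, 106 and 113 for the dimmer SPRR1A probe. The part of the percentiles in the spread was not tested.

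**Figure D3:**
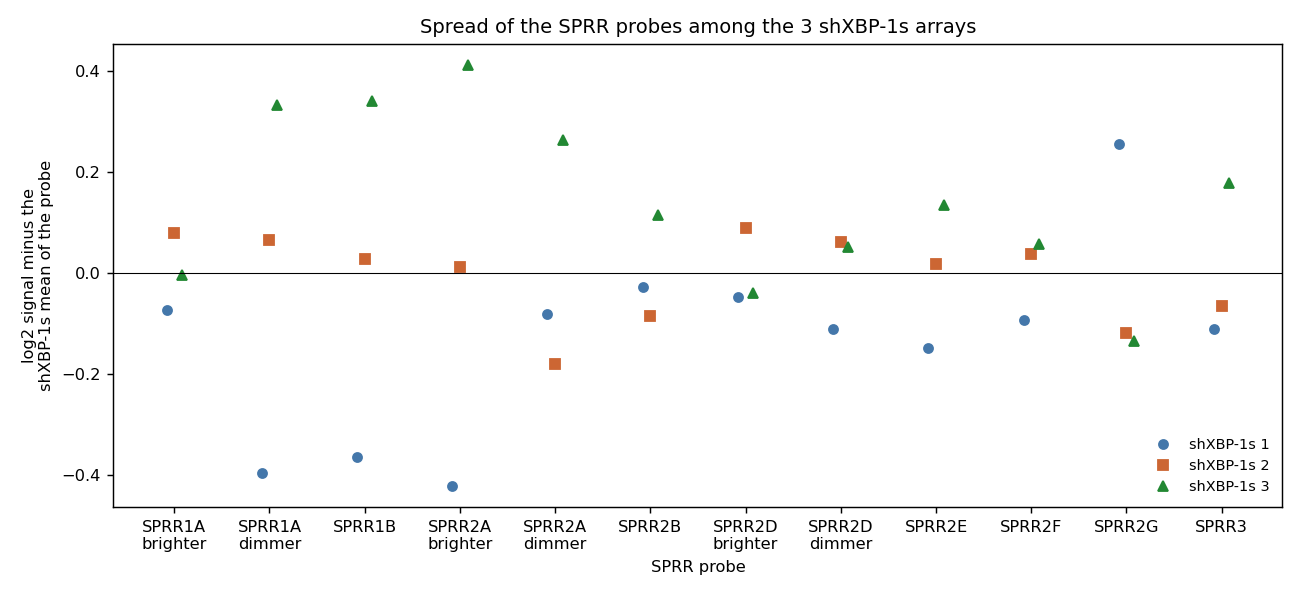
Log2 signal on each shXBP-1s array minus the mean of the 3 shXBP-1s arrays (vertical axis) for each SPRR probe (horizontal axis), with 1 symbol per replicate. Replicates 1 and 3 lie 0.71 to 0.83 apart for SPRR1B, the brighter SPRR2A probe and the dimmer SPRR1A probe, whereas the median range of the 12 probes is 0.28.

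The 9 genes sit next to each other in the epidermal differentiation complex, at places 36 to 44 of the 63 coding genes from S100A10 to S100A1, with 0 other coding genes between them. Their order is SPRR1A, SPRR3, SPRR1B, SPRR2D, SPRR2A, SPRR2B, SPRR2E, SPRR2F and SPRR2G. By the brightest probe of each, the log2 fold changes along this order were 0.19, 0.44, 3.70, 0.07, 4.02, 0.36, 0.94, 0.44 and -0.08. The 2 large values, of SPRR1B and SPRR2A, were thus each flanked by genes with values under 0.5, and SPRR2D between them had 0.07. With the dimmer probes in their place, SPRR1A and SPRR2D would stand at 3.04 and 1.56 and SPRR2A at 0.93, so this outline of the cluster rests on the choice of probe. For SPRR2A that choice followed from the difference itself, since the mean signal of its brighter probe was 0.908 times that of the other probe in shCtrl and 7.72 times in shXBP-1s.

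Of the 54 other coding genes of the complex, 51 had a probe and 42 were tested. By the brightest probe, 3 were called higher and 1 lower, where 2.30% of all 16821 tested genes were called higher and 2.88% lower. S100A12, a calcium-binding protein of inflamed epithelium, rose by 1.31 (standard error 0.14, limma adjusted p = 0.000169), and S100A10, the partner of annexin A2 at the edge of the complex, rose by 1.03 (standard error 0.07, limma adjusted p = 1.46e-05). CRCT1, a cysteine-rich gene, was called at 1.53 but was well above background on only 1 shCtrl array, and 2 neighbours were called higher where every array had to be well above background. S100A4, a calcium-binding protein linked to cell motility, fell by 1.40 (log2 fold change -1.40, limma adjusted p = 9.35e-05). The brightest were S100A2 (-0.02), S100A8 (0.34), S100A6 (-0.60) and S100A9 (0.14), none of them called. Of 19 late cornified envelope (LCE) genes 14 were tested and 0 were called in this limma fit, with 7 higher and 2 lower at an unadjusted p under 0.05, a limit passed by 22.7% of all tested genes as higher and 31.3% as lower. Without shCtrl replicate 1 the counts of the neighbours were 7 higher and 2 lower, and without shXBP-1s replicate 1 or 3 they were 5 higher. The median of the 42 was 0.14 on the log2 scale.

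**Figure D4:**
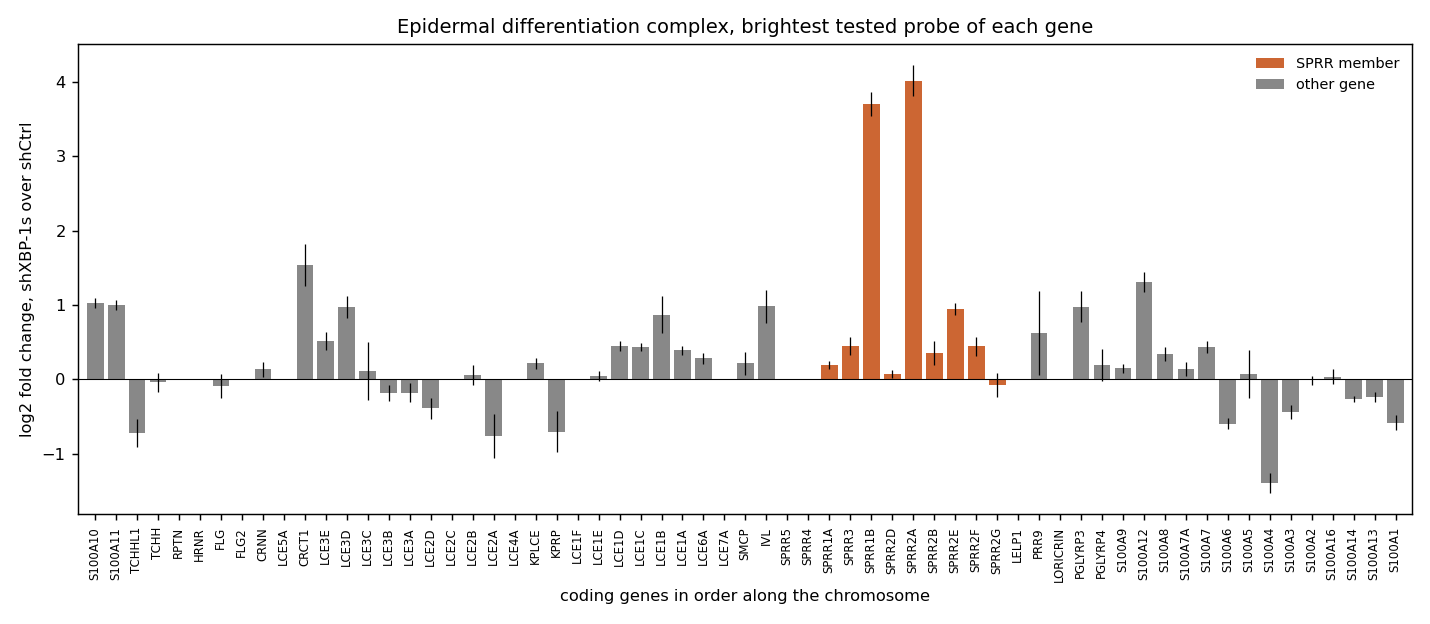
Log2 fold change of shXBP-1s over shCtrl (vertical axis, bars from 0 with standard errors) for the coding genes of the epidermal differentiation complex in chromosomal order (horizontal axis), by the brightest tested probe of each gene, with SPRR genes in orange. Genes with no bar had no tested probe. SPRR1B and SPRR2A stand at 3.70 and 4.02, and S100A12 follows at 1.31 among genes well above background on all 6 arrays. CRCT1, drawn at 1.53, was well above background on only 1 shCtrl array.

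Other genes of the envelope and its cross-linking, among them partners of the SPRR proteins, were counted next. In a list of 38 envelope and cross-linking genes, 31 were tested, and the median log2 fold change was 0.00. Of these 4 were called higher, 1 lower and 26 neither, where 2.30% of all tested genes were called higher and 2.88% lower. SCEL (sciellin, an envelope precursor) rose by 1.65 (standard error 0.11, limma adjusted p = 1.59e-05), with signals of 238, 215 and 237 in shCtrl and 850, 866 and 897 in shXBP-1s. ABCA12, the lipid transporter of the skin barrier, rose by 1.65 (standard error 0.07, limma adjusted p = 2.63e-06), and PI3 (elafin, a protease inhibitor cross-linked into the envelope) by 1.37 (standard error 0.08, limma adjusted p = 9.64e-06).

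TGM1, the membrane-bound transglutaminase that cross-links SPRR proteins, was the other gene of this list called higher. Its signals were 58.2, 72.5 and 71.0 in shCtrl and 196, 180 and 186 in shXBP-1s, a log2 rise of 1.21 (standard error 0.09, limma adjusted p = 2.60e-05). CALML5, a calmodulin-like protein of differentiating keratinocytes, fell by 1.24 (log2 fold change -1.24, standard error 0.11, limma adjusted p = 7.60e-05). The brightest genes of the list, DMKN, KRT10, EVPL and CSTA, had log2 fold changes of -0.00, -0.09, 0.02 and -0.17 and were not called. IVL (involucrin), named for its role after its value was seen, had a log2 fold change of 0.98 (standard error 0.22) and was not called, and only 1 shCtrl array was well above background. LORICRIN and 6 further genes of the list were too dim to test. The counts were 2 higher and 0 lower with normexp, alone or with quantile normalization, and 2 lower without shCtrl replicate 3.

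Keratinocyte genes known to be induced with SPRR genes in wounded or inflamed epidermis were set beside the family as a second list. Of 24 such barrier-stress genes 23 were tested, and the median log2 fold change was 0.47. In limma 10 were called higher and 0 lower, where 2.30% of all tested genes were called higher and 2.88% lower. With normexp 7 were called higher, and 8 when it was followed by quantile normalization. This list and the others were chosen with earlier results of these data known, so nothing is read from their counts. At an unadjusted p under 0.05 with no minimum fold, 18 of the 23 were higher and 4 lower, beside the 22.7% and 31.3% of all tested genes given above, and the methods' t-test with the 2-fold minimum also gave 0 lower. SERPINB2, an inhibitor of plasminogen activators, rose by 5.08 (standard error 0.16, limma adjusted p = 1.36e-06). KRT6A, a wound keratin, had signals of 205, 178 and 196 in shCtrl and 4685, 4623 and 4284 in shXBP-1s, a log2 rise of 4.28 (standard error 0.09, limma adjusted p = 4.28e-07). Its relative KRT6C rose by 3.37 (standard error 0.07, limma adjusted p = 2.81e-07), and RHCG, an ammonia transporter, by 2.33 (standard error 0.05, limma adjusted p = 4.28e-07).

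A further 5 barrier-stress genes well above background on all arrays rose by 1.31 (S100A12) to 2.07 (IL36G, an epithelial cytokine). TMPRSS11D, an airway serine protease, was well above background on none of the shCtrl arrays and on all shXBP-1s arrays, and was at least 6.78-fold higher in shXBP-1s. The brightest of the list, S100A8, SERPINB4, SERPINB3 and S100A9, were not called, with log2 fold changes of 0.34, -0.18, -0.19 and 0.14. S100A8, S100A9 and S100A12 also belong to the complex described above. The KRT6 genes are near-copies of each other, so their probes may share transcripts.

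**Figure D5:**
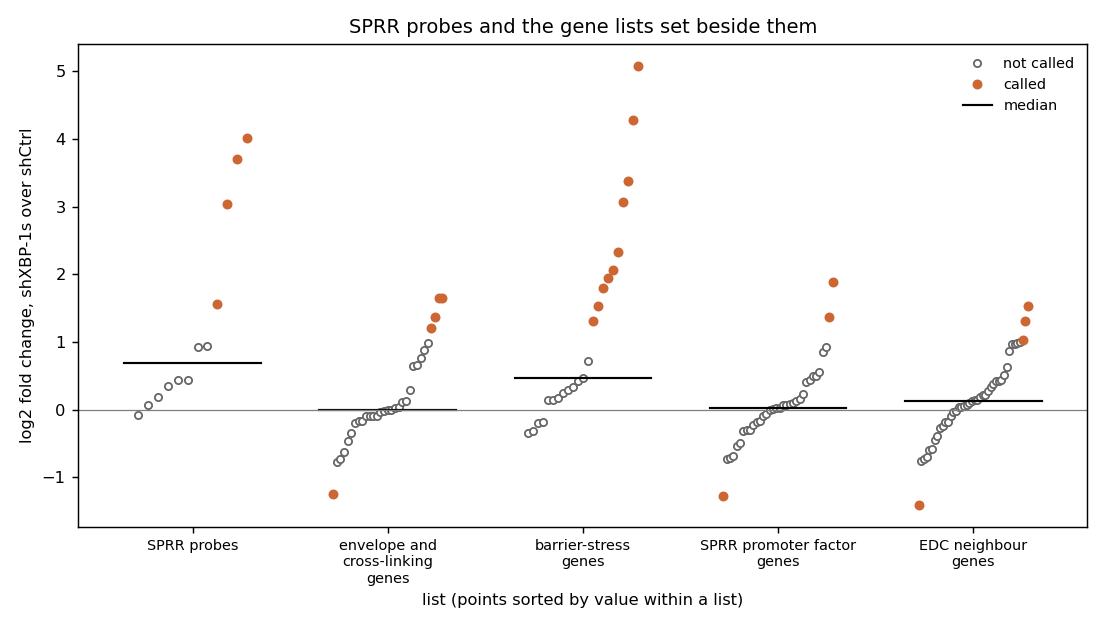
Log2 fold change of shXBP-1s over shCtrl (vertical axis) for the 12 SPRR probes and for the tested genes of 4 lists (horizontal axis, sorted by value within a list), each by its brightest probe, with called points filled and a line at the median. The medians are 0.69, 0.00, 0.47, 0.02 and 0.14 from left to right. TMPRSS11D in the barrier-stress list is plotted at its fitted 3.06, although none of its shCtrl arrays was well above background.

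All of 34 factors described at SPRR promoters or in late keratinocyte differentiation were tested, and their median log2 fold change was 0.02. Of these 2 were called higher (1 with normexp) and 1 lower, where 2.30% of all tested genes were called higher and 2.88% lower. JUN, an AP-1 subunit, had signals of 430, 433 and 438 in shCtrl and 1409, 1348 and 1320 in shXBP-1s, a log2 rise of 1.38 (standard error 0.07, limma adjusted p = 4.79e-06). Of the other FOS and JUN genes of the list, named after their values were seen, none reached 2-fold: the log2 fold changes were -0.68 for FOS, -0.17 for FOSB, 0.56 for FOSL1, -0.10 for FOSL2, 0.24 for JUNB and 0.50 for JUND. FOS was lower without overlap between the groups (standard error 0.08, limma adjusted p = 0.000347), the opposite direction to JUN. FOSL2 was also lower without overlap (limma adjusted p = 0.22). FOSL1, JUNB and JUND were higher without overlap (limma adjusted p = 0.00162, 0.01 and 0.0145), the same direction as JUN. MAF, a basic leucine zipper factor, rose by 1.88 (standard error 0.11, limma adjusted p = 1.02e-05). ELF3, an epithelial ETS factor, had signals of 1270, 1277 and 1278 in shCtrl and 776, 657 and 512 in shXBP-1s and fell by 1.27 (log2 fold change -1.27, limma adjusted p = 1.18e-05). The brightest factors were CEBPB (-0.73), STAT6 (-0.30), EHF (0.03) and KLF5 (-0.06), which did not reach 2-fold. These are transcript levels, and no measure of factor activity was made.

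The genes whose 6 values were most like those of a member were found by the Euclidean distance between their log2 levels over the 6 arrays, each set relative to its own shCtrl mean, over 16172 genes. For SPRR2A these were KRT6A (distance 0.67), IL24 (0.74), CD24 (1.25), KRT6C (1.32) and IL1RL1 (1.34). For SPRR1B they were IL1RL1 (0.75), MMP10 (0.78), KRT6C (0.82), IL1R2 (1.11) and KRT6A (1.15). In these neighbours the 3 shXBP-1s arrays were closer together than in the pair of SPRR genes: KRT6A stood at -0.10, 0.02 and 0.08 around its shXBP-1s mean, and CD24, the widest, at -0.30, 0.00 and 0.30. For SPRR3 the nearest genes, ACTL10, COXFA4L3, IL23A, MCRIP1 and FUNDC2, lay within 0.17, and for SPRR2G ARHGAP44, PPM1M, LOC606724 and ENPP4 were among the nearest, within 0.16. Short distances are easily reached where a gene differs little between the groups.

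The arrays carried 2 further SPRR names outside the 9 genes, described after their values were seen. SPRR2C, a pseudogene of the SPRR2 cluster (NR_003062), had signals of 134, 93.4 and 115 in shCtrl and 264, 250 and 262 in shXBP-1s, with 0.92 as its log2 fold change (standard error 0.16), short of 2-fold. SPRR4 (NM_173080) was not well above background on any array.

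The labelled cell type was checked by its markers. All 8 squamous epithelial markers were well above background on all 6 arrays. Their summed signal, not scaled between arrays, was 59800 to 66940 in shCtrl and 110600 to 114700 in shXBP-1s. Of these markers 5 were called higher, where 2.30% of all tested genes were. They were KRT14 (1.58), KRT17 (1.53), KRT5 (1.43), DSG3 (1.17) and PERP (1.01), whereas TP63 (0.93), CDH1 (0.13) and EPCAM (0.01) were not called. The basal keratins were thus higher on the same arrays as SPRR1B and SPRR2A. Of 6 fibroblast markers, COL3A1 was not well above background on any array, LUM (1.94) and FAP (1.76) were called higher and PDGFRB (-1.28) lower, and the summed signal was 661 to 802 in shCtrl and 522 to 668 in shXBP-1s. Of the 5 leukocyte, 3 endothelial and 3 melanocyte markers 0 were called in limma, and TYR was not well above background. At an unadjusted p under 0.05, 2 of them were higher and 3 lower, beside 22.7% and 31.3% of all tested genes. The summed leukocyte, endothelial and melanocyte signals were 3166 to 4926, 150 to 178 and 191 to 200 in shCtrl. In shXBP-1s they were 2683 to 3527, 194 to 256 and 144 to 200. None of these sums was scaled, and the 75th percentiles of the arrays were themselves higher in shXBP-1s (792 to 983) than in shCtrl (687 to 761). Differences between the groups in summed signal therefore include that overall difference in brightness. The part of any of these markers in the SPRR differences was not tested.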

How the data were processed

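RNA of CAL-27 cells, 3 shXBP-1s and 3 shCtrl samples grouped by the labels, was measured on 1-colour Agilent arrays. The authors deposited Agilent Feature Extraction 11.0.1.1 intensity files, in which signals are background-subtracted, and a table of log2 values whose normalization is not described in the methods. The labels describe NimbleGen labelling and name RMA, but the scanner files and the methods are of Agilent arrays.

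From the intensities, log2 processed signal minus the 75th percentile of the array was used. Control spots and spots flagged as non-uniform or population outliers (230 to 377 per array) were left out, and the remaining spots of each probe were averaged. Well above background means that over 50% of the spots were, and probes that were so on all arrays of a group were tested. limma 3.58.1 in R 4.3.3 (lmFit, eBayes with trend, 2-sided, Benjamini-Hochberg) was fitted to all 6 arrays without covariates. On simulated data, 188 of 200 changed probes were recovered with 2 false calls. The simulated shifts were all larger than 2-fold and the noise was independent between arrays, so differences near the 2-fold limit were not covered. Genes were named through RefSeq accessions, and 25771 of 34127 probes had a symbol.

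The family, the gene lists and the tests were chosen with earlier results of these data known. Named were all members, XBP1, the 4 brightest genes and the 4 largest called differences of each list, and the 5 genes nearest to SPRR2A, SPRR1B, SPRR3 and SPRR2G, of which 1 is not reported here. A comparison of the proteins was not done. Alternatives were normexp (offset 50) alone or with quantile normalization, other scalings, the deposited log2 table, filters, the methods' t-test, thresholds, replicate and scan blocks and each array left out. The number of arrays limits the precision.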

Additional observations from a re-analysis of the deposited data

How the results depend on the processing

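Of 188 comparisons of a list's count with its value under an alternative, 166 lay within 1.5 times. With normexp the SPRR probes called fell to 2, envelope genes to 2 higher and 0 lower, and factors to 1 higher. With normexp and quantile normalization they were 2 SPRR probes, 2 envelope genes higher and 0 lower, and 0 lower among the neighbours in the complex. With no minimum fold the counts were 9 SPRR probes, 9 envelope genes higher and 4 lower, 16 neighbours higher and 7 lower, 2 barrier-stress genes lower, and 10 factors higher and 9 lower. With the scan as a block, 2 envelope genes were lower.

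Reversed log2 fold changes were -0.56 (dimmer SPRR2A probe), -0.86 (SPRR2B), -0.021 and -0.272 (brighter and dimmer SPRR2D probes) and -0.60 (SPRR3) with normexp, and for SPRR2G 0.023 with normexp and quantile normalization, 0.185 with the scan as a block and 0.004 without shCtrl replicate 2 (-0.215 to 0.004 over the arrays left out). The dimmer SPRR2A probe stood at 1.00 with the scan as a block, where shCtrl replicate 1 was the only control. That probe gained a call without shXBP-1s replicate 2 (1.02), as did SPRR2E without shXBP-1s replicate 1 (1.02). The cause of these changes was not tested.

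Leaving out each array in turn gave 3 to 7 neighbours higher (7 without shCtrl replicate 1, 5 without shXBP-1s replicate 1 or 3) and 1 to 2 lower (2 without shCtrl replicate 1), 1 to 2 envelope genes lower (2 without shCtrl replicate 3), 4 to 5 SPRR probes, 4 to 5 envelope genes higher and 2 to 3 factors higher. The replicate number as a block left 4 SPRR probes called and changed no other call count. Same-numbered arrays had correlations of deviations of -0.02, 0.12 and -0.12. These weak values give no clear sign of pairing by number, but cannot settle how the samples were prepared. XBP1 ran from -2.40 to -2.11 over all alternatives.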
